A study of Mus musculus with 59 samples.

Results

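The genes described here are 8 genes of the primary (azurophil) granules of myeloid progenitors, namely *Mpo*, *Elane*, *Prtn3*, *Ctsg*, *Prss57*, *Ms4a3*, *Lyz2* and *Nkg7*. They were chosen by name, and each was found as 1 row among the 51810 or 51812 gene rows of every gene table used. The tables hold RNA-seq of populations sorted by flow cytometry from the bone marrow of C57BL/6 mice: KLS cells, the lineage-negative, c-Kit+ and Sca-1+ compartment that holds stem cells and multipotent progenitors, and GMPs, the granulocyte-macrophage progenitors downstream of it. Every group, controls included, carried Cre (Cre +/-). The genotypes beside it were Daxx +/+ (WT), Daxx F/F (Daxx-KO), both Daxx F/F and Pu.1 F/F (DKO) and, in a line of its own, Pu.1 +/+ (the WT of that line) and Pu.1 F/F (Pu.1-KO). Daxx is a chaperone of a variant of histone H3, and Pu.1, the product of *Spi1*, is a transcription factor of myeloid and lymphoid cells.

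The groups form 4 sets. The untimed set holds 2 WT and 2 Daxx-KO libraries of each cell type, and its labels give neither the mouse line nor a time. The other sets are of the Mx1Cre line, in which an interferon-responsive promoter drives Cre after injection of double-stranded RNA and is active in other tissues besides blood. At 3 weeks post induction (w.p.i.) there were 3 WT, 3 Daxx-KO and 2 DKO libraries of each cell type. The Pu.1 line, also at 3 w.p.i., had 2 WT and 2 Pu.1-KO libraries of each cell type. No label ties their columns to a genotype, which was read from the control or treatment ending of the matching columns of a companion table. So was the genotype of the WT animal at 3 w.p.i. whose label carries no animal number. At 24 w.p.i. only 2 WT libraries of each cell type were used, which were assigned through the control ending of the matching columns of a companion table, and they are described without a test. That makes 36 libraries of the 59 samples. The study's methods also describe KLS cells and GMPs from irradiated recipients of bone marrow mixed with support cells, and the labels do not say which libraries came from them. The study describes its other KLS and GMP sets as taken at 3 or 24 w.p.i., and only the untimed libraries carry no time. By elimination the untimed set is therefore probably the one from these recipients. The ages of the mice are not in the labels. The labels do not say that the untimed libraries are separate animals, so that their p-values measure the spread between these samples, which may be technical. The column headings of the timed sets carry animal numbers.

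Primary granules are the first granules that a developing neutrophil makes, at the promyelocyte stage, and their genes are switched on in GMPs and off again before the specific and gelatinase granules are filled. Mpo makes hypochlorous acid from hydrogen peroxide and chloride. Elane (neutrophil elastase), Prtn3 (proteinase 3), Ctsg (cathepsin G) and Prss57 are serine proteases stored in active form. Lyz2 (lysozyme M) cuts the bacterial cell wall, and its gene stays on in later neutrophils, monocytes and macrophages. Ms4a3 and Nkg7 are membrane proteins, the former of granulocyte-monocyte progenitors and the latter of the granules of cytotoxic lymphocytes as well as of myeloid progenitors. Pu.1, C/EBP factors, Runx1 and Myb are known activators of several of these genes, which is why the stretch before the start site is shown for 4 of them.

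The 250 bases that precede the RefSeq start site (GRCm38.p6, written 5′ to 3′ on the strand of the gene) are given for *Mpo* at chr11:87793534-87793783 on the plus strand, *Elane* at chr10:79886062-79886311 on the plus strand, *Prtn3* at chr10:79879417-79879666 on the plus strand and *Lyz2* at chr10:117282273-117282522 on the minus strand. Capitals mark GAGGAA, the letters searched for Pu.1, on either strand, and *Lyz2* is shown as a member without them.
Mpo: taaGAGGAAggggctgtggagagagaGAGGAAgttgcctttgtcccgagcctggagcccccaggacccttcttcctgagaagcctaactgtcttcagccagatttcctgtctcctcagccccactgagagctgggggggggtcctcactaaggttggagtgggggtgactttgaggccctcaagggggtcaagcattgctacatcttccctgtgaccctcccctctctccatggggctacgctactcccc
Elane: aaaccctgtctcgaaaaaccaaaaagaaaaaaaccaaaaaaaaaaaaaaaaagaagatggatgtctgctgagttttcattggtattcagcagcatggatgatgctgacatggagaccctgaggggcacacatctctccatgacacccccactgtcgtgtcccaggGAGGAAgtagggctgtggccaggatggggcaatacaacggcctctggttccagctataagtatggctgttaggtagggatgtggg
Prtn3: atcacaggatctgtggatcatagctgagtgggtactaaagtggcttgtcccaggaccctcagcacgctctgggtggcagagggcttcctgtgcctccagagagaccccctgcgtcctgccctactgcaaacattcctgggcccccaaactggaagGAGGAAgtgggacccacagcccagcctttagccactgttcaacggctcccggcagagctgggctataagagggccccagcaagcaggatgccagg
Lyz2: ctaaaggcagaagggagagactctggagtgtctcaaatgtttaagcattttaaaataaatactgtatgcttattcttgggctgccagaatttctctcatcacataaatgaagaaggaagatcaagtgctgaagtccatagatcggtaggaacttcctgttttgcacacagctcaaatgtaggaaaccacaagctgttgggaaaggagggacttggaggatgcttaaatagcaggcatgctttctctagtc

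RefSeq windows of 300 bases, which add 50 bases after the start site, were at hand for 7 of the 8 genes and not for *Prss57*. GAGGAA or its reverse complement was found in 5 of the 7, namely at 2 places in *Mpo* and at 1 in each of *Elane*, *Prtn3*, *Ctsg* and *Ms4a3*, and in 28.3% of all 32851 promoter windows. In *Elane* it began 85 bases and in *Prtn3* 95 bases before the RefSeq start site, whereas in *Mpo* the matches began 247 and 224 bases before it. These distances hold for the RefSeq starts only. The GENCODE annotation given below starts *Mpo* (chr11:87793581) and *Elane* (chr10:79886247) inside their windows and *Prtn3* (chr10:79874476) upstream of its window. TTGCNNAA, searched for C/EBP, was found in 1 of the 7 (*Ms4a3*) and in 10.8% of all windows. TGTGGT, searched for Runx, was found in 3 of the 7 and 16.8% of all windows, and AACNG, searched for Myb, in 6 of the 7 and 80.3% of all windows. Both strands were searched each time, none of the other motifs overlapped GAGGAA in these windows, and a match is only a match of letters.

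By the GENCODE M21 annotation of GRCm38, *Elane* (chr10:79886247-79888215, plus strand) starts 3.07 kb after the end of *Prtn3* (chr10:79874476-79883174, plus strand), and *Prss57* (chr10:79781474-79790961, minus strand) lies 83.5 kb before *Prtn3*. *Lyz2* (chr10:117277331-117282321, minus strand) is on the same chromosome, far from these 3. *Mpo* is at chr11:87793581-87804413 on the plus strand, *Ctsg* at chr14:56099881-56102574 on the minus strand, *Ms4a3* at chr19:11629496-11640851 on the minus strand and *Nkg7* at chr7:43437073-43438249 on the plus strand. Genes on the opposite strand overlap *Mpo* (*Gm11505*), *Prtn3* (*Plppr3*) and *Prss57* (*Fstl3*), and since the use of strand in the counting is not given in the sources used here, reads of each pair cannot be told apart. *Lyz2* lies 5.48 kb from its near copy *Lyz1*, and 195 of the 1267 stretches of 50 bases in its longest transcript (15.4%) are also in *Lyz1*. *Lyz1* was between 0 and 27.7 normalized counts in all 36 libraries, so that it took few of the reads that could be split.

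Each library held between 3388906 and 29335964 gene reads, and the values are counts that the authors scaled within each table, so that levels are compared within a table or as a share of a library's gene reads. Within each table *Daxx* was lower in all Daxx-KO and DKO libraries than in WT. In the untimed set it was at 29.7 to 33.9 normalized counts in Daxx-KO KLS cells (WT 119 to 138) and at 22.8 to 44.6 in Daxx-KO GMPs (WT 143 to 215). At 3 w.p.i. it was at 72.2 to 102 in Daxx-KO and 78.1 to 93.9 in DKO KLS cells (WT 423 to 505). In GMPs it was at 55.1 to 83.0 and 62.9 to 78.9 (WT 622 to 688). *Spi1* was higher in KLS cells labelled DKO (2993 to 3330.4) than in their WT (1669 to 2320.0), overlapped WT in KLS cells labelled Pu.1-KO (1307 to 2920.5, WT 2080.1 to 2764) and was lower in GMPs labelled Pu.1-KO (2589 to 2707, WT 3395 to 3934). Reads over the whole gene need not come from the deleted exons, so *Spi1* does not check its deletion, and these libraries are called DKO-labelled and Pu.1-KO-labelled below.

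In WT GMPs the members together held 1.04 to 2.09% of all gene reads, against 0.0178 to 0.353% in WT KLS cells. The share of reads of *Mpo* was 85.7 times as high in WT GMPs as in WT KLS cells of the untimed set, and that of *Elane* 236 times, of *Ms4a3* 91.9 times, of *Ctsg* 40.5 times, of *Prss57* 25.7 times and of *Prtn3* 22.6 times. *Nkg7* was 5.76 times and *Lyz2* 1.92 times as high. In the WT of the Pu.1 line the distance was smaller, 11.1 times for *Mpo*, 11.2 for *Elane* and 10.4 for *Prtn3*, with *Lyz2* at 1.12 times. At 24 w.p.i. it was 5.21 to 12.8 times for the 7 genes other than *Lyz2*, which stood at 2.21 times. In these 3 sets *Lyz2* was the member that differed least between the cell types. At 3 w.p.i. it differed most, at 11.7 times, with *Mpo* at 8.43, *Elane* at 8.39 and *Nkg7* lowest at 4.27. KLS cells and GMPs were normalized in separate tables, so these ratios are of shares of reads and carry no test.

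Levels between genes were compared in RPKM, the reads per kilobase of exon scaled to the gene reads of the library. In WT GMPs of the untimed set *Elane* stood first at 2326, followed by *Mpo* at 1616, *Ctsg* at 818, *Prtn3* at 647, *Ms4a3* at 252, *Nkg7* at 214, *Lyz2* at 106 and *Prss57* at 30.1, and the libraries of no neighbouring pair in this order overlapped. *Elane* and *Mpo* also led in WT GMPs at 3 w.p.i. (3309 and 2114 RPKM, with overlapping libraries), in the Pu.1 line (4550.2 and 3572) and at 24 w.p.i. (4425 and 2450.0). The place of *Lyz2* moved most, from the seventh place in the untimed set to the third at 3 w.p.i., where its 3 WT libraries ran from 293 to 1330.1. In WT KLS cells of the untimed set the order was another one, led by *Lyz2* at 55.2 and *Nkg7* at 37.2, with *Mpo* at 18.8 and *Elane* at 9.86, and all neighbours in it overlapped. *Elane* and *Mpo* again led in WT KLS cells at 3 w.p.i. (394 and 251) and in the Pu.1 line (408 and 322).

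**Figure D1:**
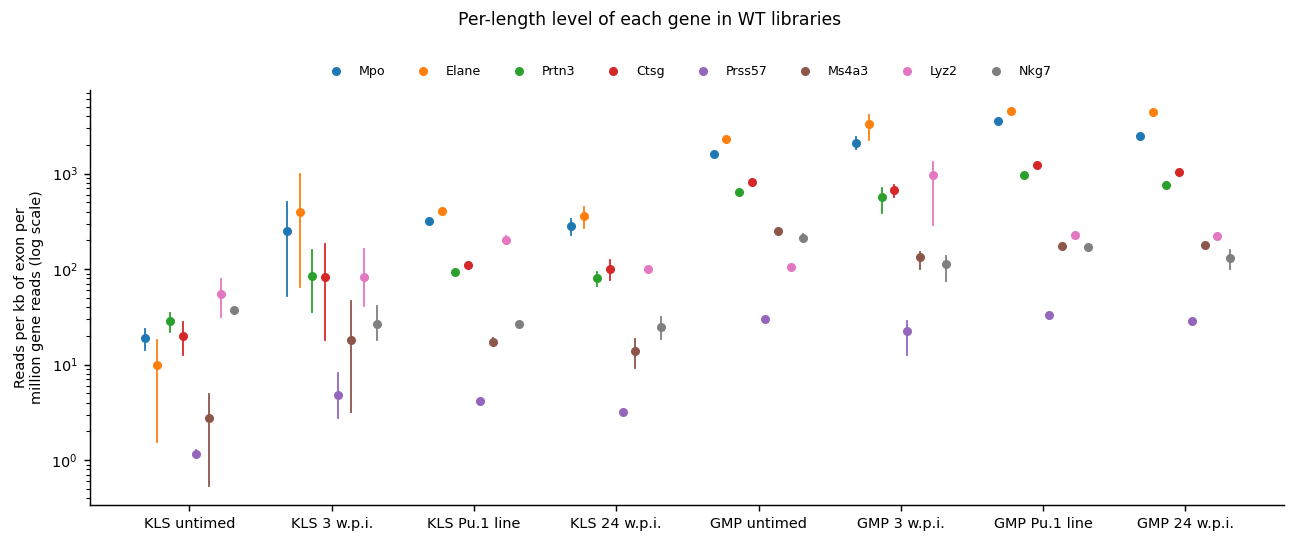
Per-length level of each gene in the WT libraries of every table, in RPKM (reads per kilobase of exon scaled to the gene reads of the library) on a log scale (points, mean; lines, lowest to highest library). *Elane* and *Mpo* lead in all 4 GMP tables, while in untimed KLS cells *Lyz2* leads at 55.2 and *Prss57* is lowest at 1.17.

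Whether loss of Daxx changes the granule programme was addressed first in the untimed set. In KLS cells the members were higher in Daxx-KO, except *Nkg7*, which was lower. *Mpo* was at 535 and 329 normalized counts in the WT libraries and at 6632 and 8348 in the Daxx-KO libraries, 17.3-fold higher. On the scale used for all tests here, log2 of the normalized count plus 1, this difference was 4.15 ± 0.21 (SE; limma with a mean-variance trend, Benjamini-Hochberg adjusted over all 13508 genes tested, adjusted p = 7.0e-06). The 4 serine proteases rose with it. *Elane* went from 119 and 10.3 to 729 and 1524 (log2 difference 4.84 ± 0.89, adjusted p = 0.0051), and its WT values rest on 69 and 6 reads. *Ctsg* went from 191 and 87.8 to 1820.3 and 2264 (3.96 ± 0.31, adjusted p = 4.9e-05), and *Prtn3* from 404 and 258 to 2074 and 2596 (2.84 ± 0.20, adjusted p = 3.5e-05). *Prss57*, the least abundant protease, went from 24.1 and 20.7 to 311 and 407 (3.93 ± 0.26, adjusted p = 2.2e-05). Neither Daxx-KO library overlapped a WT library for any of them, nor for the other members, where 32.9% of all genes had both Daxx-KO libraries higher and 29.8% both lower.

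Of the membrane proteins, *Ms4a3* was at 61.9 and 6.89 normalized counts in WT KLS cells, or 36 and 4 reads, and at 671 and 764 in Daxx-KO (log2 difference 5.01 ± 0.76, adjusted p = 0.0020). *Nkg7* moved the other way, from 241 and 215 to 106 and 101, 2.20-fold lower (−1.13 ± 0.19, adjusted p = 0.0032). *Lyz2* rose from 689.8 and 281 to 1876 and 2398, 4.40-fold (2.27 ± 0.34, adjusted p = 0.0019). All 8 members thus passed the test, 7 higher and 1 lower, where 23.1% of all genes tested did, 10.6% of them higher and 12.5% lower. The median log2 difference over the members was 3.95 against 0.03 over all genes. Together they made up 0.0178 to 0.0341% of gene reads in WT and 0.205 to 0.268% in Daxx-KO.

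The untimed KLS libraries also differed in genes that mark the sort and other cells. Of 9 stem cell and KLS markers 8 were lower and 1 higher in Daxx-KO, where 12.5% of all genes were lower and 10.6% higher. Their summed level fell from 37528 to 38777 in WT to 8502 to 9135 in Daxx-KO. The 1 that rose was *Ly6a*, the gene of the sort marker Sca-1 (log2 difference 1.94 ± 0.16, adjusted p = 7.9e-05). *Kit*, the gene of the sort marker c-Kit, fell (−1.03 ± 0.10, adjusted p = 0.00015). Of 8 B and plasma cell markers tested, 7 were lower, with sums of 13046 to 20483 in WT and 704 to 1025 in Daxx-KO. The first WT library held late granule genes that the other lacked, with *Ltf* at 795 and 1.72 and *S100a8* at 1146 and 3.45. The part of these in the result was not tested. Bulk RNA cannot tell fewer cells of a type from less RNA per cell. Without the first Daxx-KO library 4 members were called and without the second 2, the lone library then being taken to vary like the WT, whereas all 8 were called without either WT library.

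In untimed GMPs, where the members were already high in WT, the differences were small for most members and had both directions. *Mpo* was lower, at 34972 and 35893 normalized counts in WT and 28365 and 26730.4 in Daxx-KO (log2 difference −0.36 ± 0.09, adjusted p = 0.011). *Elane* was higher, at 14518 and 14803 against 19563 and 20704 (0.46 ± 0.08, adjusted p = 0.0029), as was *Prtn3*, at 7366 and 6990.3 against 10861 and 9797 (0.52 ± 0.09, adjusted p = 0.0019). *Mpo* and *Elane*, which have the most reads of the members, thus moved in opposite directions, by 1.29-fold down and 1.37-fold up. *Prss57* had the widest difference of the proteases, from 574 and 524 to 1107 and 1129, 2.04-fold (1.03 ± 0.10, adjusted p = 0.00011). *Ctsg* stood at 5768 and 5064 in WT and 6212 and 6155 in Daxx-KO and did not pass (0.19 ± 0.09, adjusted p = 0.14), though its libraries did not overlap. No member's did, where 33.1% of all genes had both Daxx-KO libraries higher and 34.1% both lower.

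*Ms4a3* was 1.20-fold higher in Daxx-KO GMPs (3182 and 2909 against 3686 and 3650.4, adjusted p = 0.038). *Nkg7* was again lower, at 1142 and 1365 in WT and 829 and 634 in Daxx-KO (−0.78 ± 0.14, adjusted p = 0.0030). *Lyz2* stood apart from the other members with a 5.64-fold rise, from 866 and 923 to 3785 and 6297 (2.45 ± 0.19, adjusted p = 3.8e-05). In all 7 members were called, 5 higher and 2 lower, where 33% of all genes were, 16.6% higher and 16.5% lower. The members' joint share of gene reads was 1.06 to 1.07% in WT and 1.06 to 1.08% in Daxx-KO, the rise of some being matched in reads by the fall of *Mpo*. Beside these values, 8 of 13 late neutrophil granule genes tested were higher and 2 lower (*Chil3* 4.78, *S100a9* 3.39 and *Cd177* 3.03 on the log2 scale), and all 8 markers of mast cells, basophils and eosinophils were lower, with sums of 6426 to 6955 in WT and 814 to 1515 in Daxx-KO. Macrophage markers were called in both directions, led by *Mrc1* (2.45), *Vcam1* (−1.58) and *Cd68* (1.53) on the log2 scale. The genes whose products gate GMPs, picked out after their values were seen, did not move one way. *Fcgr3* was at 654 and 712 in WT and lower in Daxx-KO, at 87.2 and 19.6, and *Cd34* fell from 436 and 556 to 75.0 and 24.9. *Fcgr2b*, whose product the same antibody for CD16/32 binds, was higher, at 619 and 551 in WT and 1251 and 1426 in Daxx-KO, and *Kit* was higher by 0.40 ± 0.08 on the log2 scale (adjusted p = 0.0053). Their part in the members' values was not tested.

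**Figure D2:**
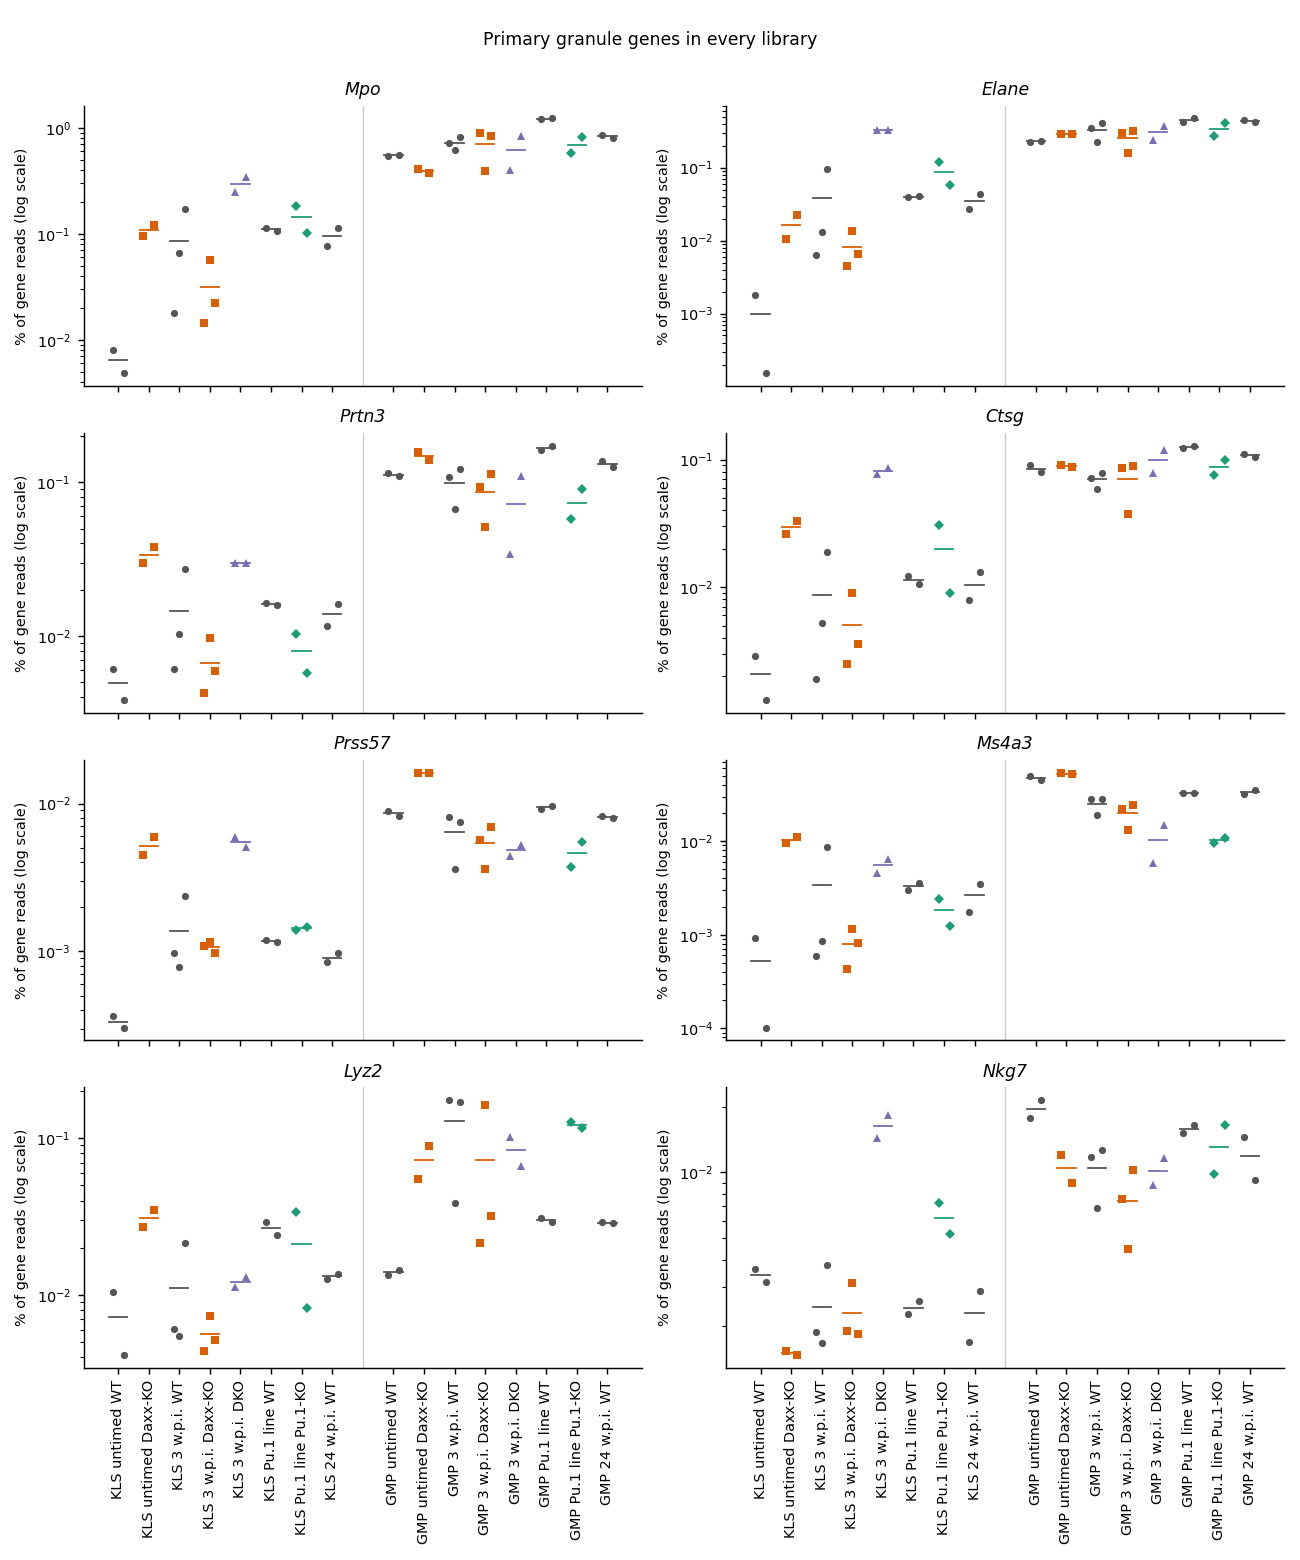
Share of gene reads of each member on a log scale, 1 point per library, by table and genotype. In untimed KLS cells the Daxx-KO points of 7 genes lie above WT and those of *Nkg7* below, and in KLS cells at 3 w.p.i. the DKO-labelled libraries lie above the others for 6 of the 8 genes.

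The Daxx-KO effect differed between the untimed cell types for 6 of the 8 members by a test of the difference itself, where 21% of 13340 genes were called. It was larger in KLS cells than in GMPs by 4.51 ± 0.27 on the log2 scale for *Mpo* (adjusted p = 9.9e-06), by 4.74 ± 0.96 for *Ms4a3* (adjusted p = 0.0074), by 4.38 ± 1.13 for *Elane* (adjusted p = 0.022), by 3.76 ± 0.39 for *Ctsg* (adjusted p = 0.00021), by 2.91 ± 0.23 for *Prss57* (adjusted p = 4.9e-05) and by 2.32 ± 0.26 for *Prtn3* (adjusted p = 0.00032). For *Lyz2* the difference between the effects was −0.18 ± 0.50 (adjusted p = 0.83) and for *Nkg7* −0.35 ± 0.22 (adjusted p = 0.30). In Daxx-KO the GMPs exceeded the KLS cells in share of reads by 3.64-fold for *Mpo*, 17.7-fold for *Elane* and 3.00-fold for *Ctsg*, far less than the distance between the WT cells given above.

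At 3 w.p.i. the same comparison of Daxx-KO with WT called none of the 8 members in KLS cells, where 0.257% of 15200 genes passed. edgeR and DESeq2 on the recovered reads also called none. *Mpo* was at 2388, 8679.6 and 23075 normalized counts in the 3 WT libraries and at 1859, 7891 and 2869 in Daxx-KO (log2 difference −1.17 ± 0.73), and *Elane* at 849, 1737 and 12857 and at 584, 1862 and 845 (−1.46 ± 0.82). *Prtn3* was at 808, 1355 and 3609 in WT and at 551, 1338 and 750.1 in Daxx-KO (−0.95 ± 0.48). The highest value of each gene came from the same library, the WT library whose label carries no animal number (the unnumbered WT library), which was also the highest of the 6 for the other 5 members. For all 8 members the WT and Daxx-KO libraries overlapped (9.07% of all genes had all Daxx-KO libraries higher and 9.16% all lower), the log2 differences ran from −1.46 to −0.05, and the adjusted p-values ran from 0.48 to 0.97.

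A test of the difference between the untimed and the 3 w.p.i. effects in KLS cells called 7 members, where 8.94% of 14826 genes were called. The Daxx-KO effect was higher in the untimed set by 5.31 ± 1.05 for *Mpo* (adjusted p = 0.0068), by 6.30 ± 1.48 for *Elane* (adjusted p = 0.018) and by 6.17 ± 1.43 for *Ms4a3* (adjusted p = 0.017). *Prss57* (4.13 ± 0.54), *Ctsg* (4.38 ± 1.07), *Prtn3* (3.78 ± 0.71) and *Lyz2* (2.98 ± 0.73) followed, with adjusted p-values of 0.00037 to 0.022. *Nkg7* differed by −1.08 ± 0.47 (adjusted p = 0.21). The WT libraries of the sets were far apart too, since *Mpo* was at 329 to 535 normalized counts in untimed WT and at 2388 to 23075 at 3 w.p.i. with its own scaling. Time, procedure and table cannot be told apart here, and 3 members were called without the second untimed library of either genotype and 4 without the first untimed Daxx-KO library.

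The highest shares among KLS cells were in the DKO-labelled libraries, where the members together held 0.719 to 0.830% of gene reads, against 0.0419 to 0.353% in WT and 0.0335 to 0.102% in Daxx-KO of the same table. *Elane* was at 49324 and 44193 normalized counts in them, against 849 to 12857 in WT and 584 to 1862 in Daxx-KO. That is 9.08-fold over the WT mean (log2 difference 4.13 ± 0.91, adjusted p = 0.015) and 42.6-fold over the Daxx-KO mean (5.58 ± 0.91, adjusted p = 0.0033). *Ctsg* was at 11694 and 11712 in DKO-labelled cells, at 251, 694 and 2487 in WT and at 319, 1241 and 457 in Daxx-KO (log2 difference from WT 3.95 ± 0.81, adjusted p = 0.010, and from Daxx-KO 4.37 ± 0.81, adjusted p = 0.0061). *Prss57* was at 902 and 698, above 102 to 312 in WT and 124.5 to 158 in Daxx-KO (2.30 ± 0.41, adjusted p = 0.0058, and 2.49 ± 0.41, adjusted p = 0.0034). For these 3 proteases both DKO-labelled libraries were above all 6 others.

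*Nkg7*, which was lower in untimed Daxx-KO cells, was higher here, at 2175 and 2502 in DKO-labelled cells against 219 to 504 in WT and 234 to 432 in Daxx-KO (2.95 ± 0.37, adjusted p = 0.0011, and 3.00 ± 0.37, adjusted p = 0.00079). *Mpo*, at 37886 and 47431, was above all other libraries but passed only against Daxx-KO (3.61 ± 0.82, adjusted p = 0.016) and not against WT (2.44 ± 0.82, adjusted p = 0.067). So did *Prtn3*, at 4538 and 4074 (2.39 ± 0.54, adjusted p = 0.016 against Daxx-KO, and 1.44 ± 0.54, adjusted p = 0.093 against WT). *Ms4a3* at 698 and 889 and *Lyz2* at 1704 and 1767 passed against neither, and the unnumbered WT library exceeded both DKO-labelled libraries in each (1161 and 2851).

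Counted over the members, 4 of 8 were called higher against WT, where 17.6% of all genes were called and 9.24% were called higher, and 6 of 8 against Daxx-KO, where 15.4% and 8.17% were. Both DKO-labelled libraries, which the comparisons share, were above all WT libraries for 6 members, where 26% of all genes were, and above all Daxx-KO libraries for all 8, where 22.3% were. The median log2 difference over the members was 2.37 against WT and 3.00 against Daxx-KO, with medians over all genes of 0.00 and −0.01. The unnumbered WT library decided the first count: without it 8 members were called against WT. Without the first DKO-labelled library 1 member was called against WT and 2 against Daxx-KO, the lone second library then being taken to vary like the other groups. Other genes moved in these libraries as well. *Ngp*, a late granule gene, was 6.81 and *Camp* 5.83 higher on the log2 scale than in WT, 4 of 14 late granule genes tested were called higher against WT and 8 against Daxx-KO, and 4 of 9 stem cell and KLS markers were lower (summed level 27694 to 36158, WT 63473 to 91249). Among T and NK cell markers *Prf1* alone was called against WT, higher at a mean of 37.0 against 2.67 (4.19 ± 1.14, adjusted p = 0.032). *Ncr1* alone was called against Daxx-KO, lower at a mean of 1.92 against 51.5 (−3.87 ± 0.90, adjusted p = 0.018). The part of all these genes in the members' values, that of *Nkg7* included, was not tested.

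**Figure D3:**
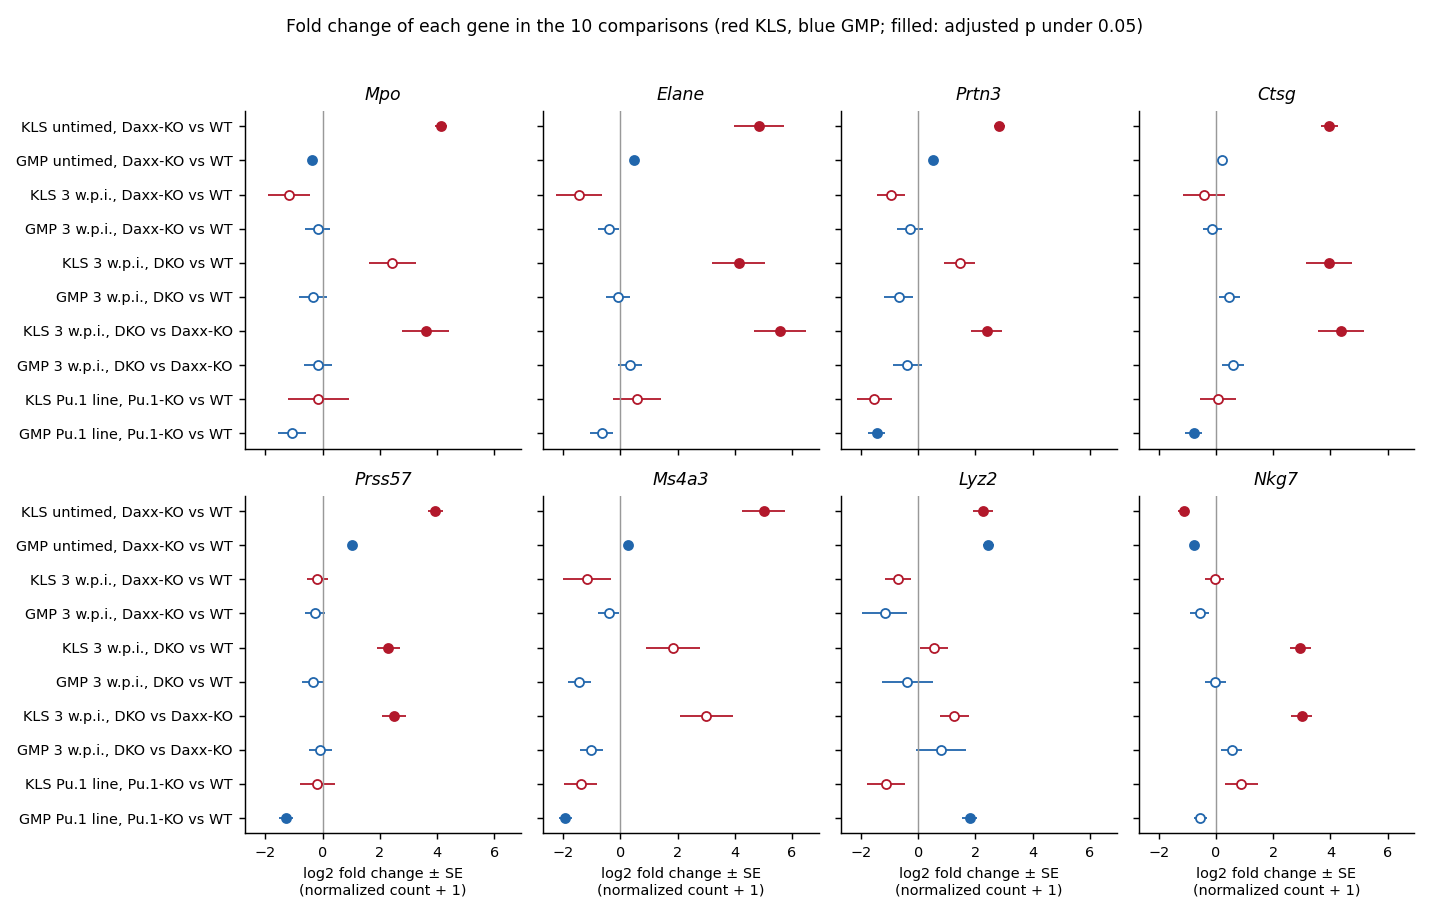
Log2 difference (points, limma, with bars of 1 SE, filled where adjusted p was under 0.05) of each member in the 10 comparisons, KLS cells in red and GMPs in blue. In KLS cells the untimed Daxx-KO points reach 5.01 (*Ms4a3*) with *Nkg7* alone below 0, the 3 w.p.i. Daxx-KO values lie between −1.46 and −0.05, and the DKO-labelled values reach 5.58 (*Elane*) against Daxx-KO.

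In GMPs at 3 w.p.i. no member was called in any comparison, by limma, edgeR or DESeq2. The share of all 13714 genes that passed was 0.0948% for Daxx-KO against WT, 0.292% for DKO-labelled against WT and 0.0583% for DKO-labelled against Daxx-KO. *Mpo* was at 96247, 75217 and 109114 normalized counts in WT, at 112269, 50609.9 and 97738 in Daxx-KO and at 50665 and 107366 in DKO-labelled GMPs, so that the ranges lay across each other. *Elane* was at 46661, 26644 and 53615 in WT, at 37689.8, 20621 and 36489 in Daxx-KO and at 30067 and 48247 in DKO-labelled GMPs. *Prtn3* was at 14375, 8122 and 16262 in WT, at 11758, 6554 and 13246 in Daxx-KO and at 4278 and 13997 in DKO-labelled GMPs. The second WT, the second Daxx-KO and the first DKO-labelled library were the lowest of their groups in all 3 genes. *Ms4a3* was at 726 and 1908 in DKO-labelled GMPs, below all 3 WT libraries (3750.2, 2285 and 3761), as were 8.41% of all genes, with a log2 difference of −1.43 ± 0.41 (adjusted p = 0.30).

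*Lyz2* was the most uneven member in GMPs at 3 w.p.i. and did not follow genotype. It was at 23219, 4649 and 22677 normalized counts in WT, at 2699, 21065 and 3722 in Daxx-KO and at 12714 and 8452 in DKO-labelled GMPs (log2 difference of Daxx-KO from WT −1.18 ± 0.79). The 3 highest libraries, WT a, WT c and Daxx-KO b, were also the 3 with the highest *Ltf*, the gene of lactoferrin in specific granules, which was chosen after its values were seen. *Ltf* was at 49431, 10615 and 38466 in WT a to c, at 4736, 73957 and 5124 in Daxx-KO a to c and at 22589 and 9877 in DKO-labelled a and b. Daxx-KO b, the library with the most *Ltf*, had the lowest *Mpo*, *Elane*, *Ctsg* and *Nkg7* of all 8 libraries. WT c, also among the 3 with the highest *Ltf*, instead had the highest *Elane* (53615), *Prtn3* (16262) and *Nkg7* (1674) of the 8. In the Pu.1 line the Pu.1-KO-labelled GMPs, high in *Lyz2* (13250.1 and 15040.5, WT 4098 and 4049), were also high in *Ltf* (17436 and 14754, WT 5731 and 3945). These libraries fall into separate clusters, so no correlation was computed.

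**Figure D4:**
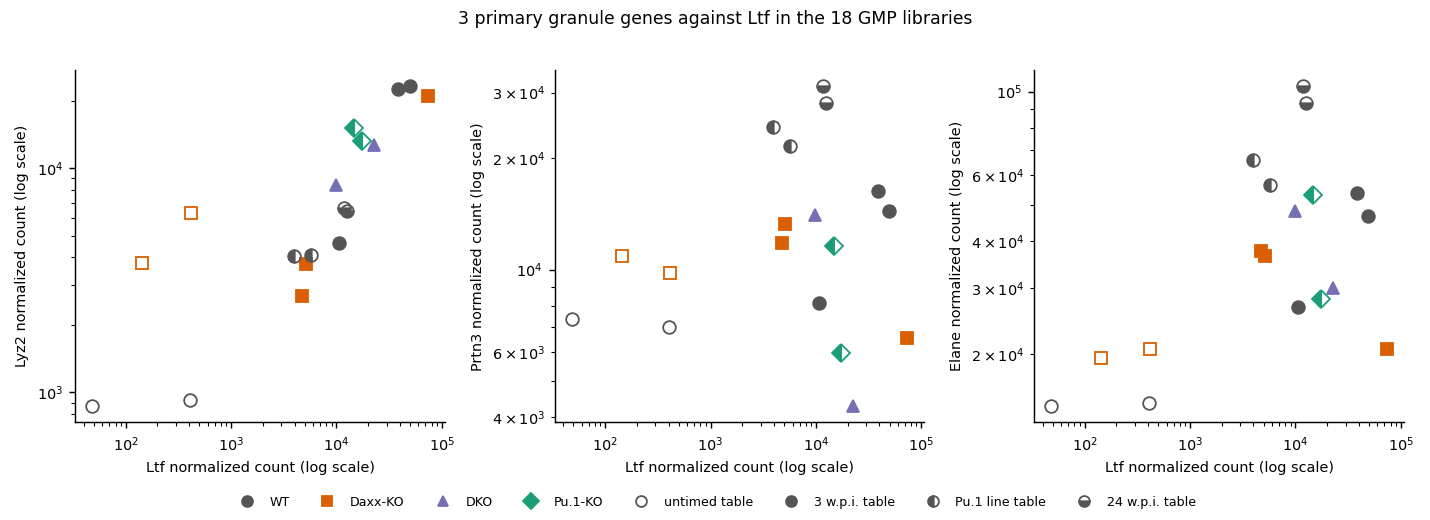
*Lyz2*, *Prtn3* and *Elane* against *Ltf* in the 18 GMP libraries, as normalized counts on log scales, by genotype (colour and symbol) and table (fill). At 3 w.p.i. the 3 libraries with *Lyz2* at 21065 to 23219 are those with *Ltf* at 38466 to 73957, while *Prtn3* and *Elane* do not rise with *Ltf* in the same way.

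Column headings tie each KLS library of the timed sets to the GMP library of the same animal. In WT at 3 w.p.i. the share of reads of *Mpo* was 40.3, 9.46 and 4.74 times as high in GMPs as in KLS cells of the same animal, and in Daxx-KO 61.8, 6.85 and 37.3 times. In the DKO-labelled animals *Mpo* stood at 1.61 and 2.41 times, *Prtn3* at 1.14 and 3.66 times and *Ms4a3* at 1.26 and 2.29 times. *Elane* stood there at 0.735 and 1.16 times, *Prss57* at 0.739 and 1.02 times and *Nkg7* at 0.608 and 0.633 times, lower in GMPs than in KLS cells for the last. *Lyz2*, in contrast, was 9.0 and 5.10 times as high in the GMPs of these animals, and *Ltf* 144 and 23.9 times.

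The difference between the DKO effects in KLS cells and GMPs, a test added after the data were seen, was called for 1 member, *Nkg7* (2.97 ± 0.57, adjusted p = 0.026), where 0.847% of 14762 genes were called. With the animal as a block it was called for 3 members, *Nkg7* (2.97 ± 0.50, adjusted p = 0.017), *Prss57* (2.64 ± 0.46, adjusted p = 0.019) and *Elane* (4.22 ± 0.95, adjusted p = 0.045). Without the unnumbered WT library of KLS cells 7 members were called and without WT b of the GMPs 3, while none was called without WT 1, WT 2 or either DKO-labelled library of KLS cells or without WT a, WT c or DKO-labelled a of the GMPs. The corresponding test of the Daxx-KO effect at 3 w.p.i. called no member, where 0.0135% of 14762 genes were called.

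**Figure D5:**
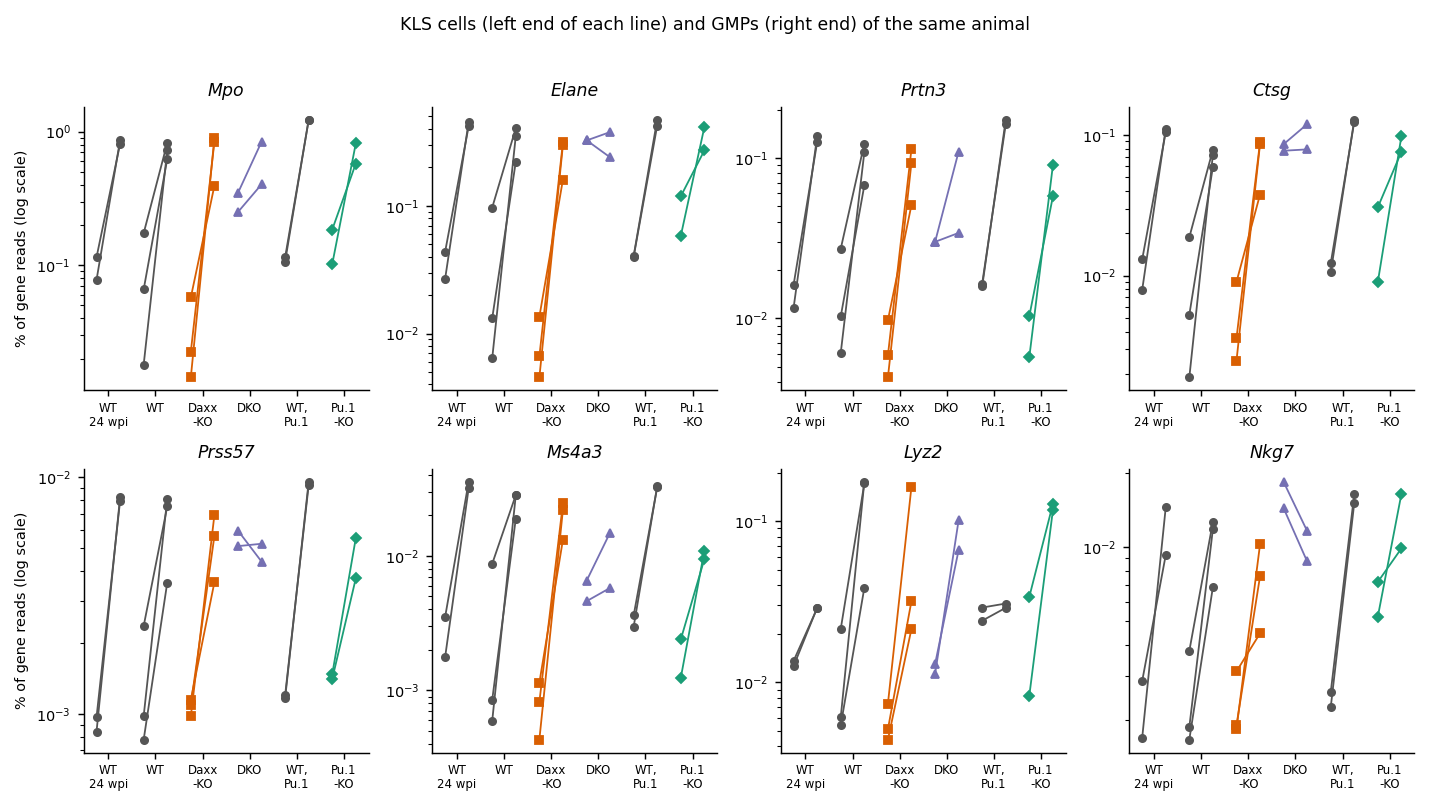
Share of gene reads of each member (log scale) in the KLS cells (left end of each line) and GMPs (right end) of the same animal, 1 line per animal, for WT at 24 w.p.i., for WT, Daxx-KO and DKO at 3 w.p.i. and for the Pu.1 line. Lines of the DKO-labelled animals are nearly level for *Elane* and *Prss57* and fall for *Nkg7*, whereas they rise 9.0- and 5.10-fold for *Lyz2*.

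In GMPs of the Pu.1 line the members that were called went both ways. In GMPs labelled Pu.1-KO 3 of the 4 serine proteases and *Ms4a3* were lower than in WT, and *Lyz2* was higher. *Ms4a3* was at 4387 and 4528 normalized counts in WT and at 983 and 1404 in Pu.1-KO-labelled GMPs, 3.74-fold lower (log2 difference −1.92 ± 0.24, adjusted p = 2.3e-13 over 19337 genes). In both cell types of this line the fit took a gene's variance from the trend with mean level, not from its own replicates. The SEs and p-values of limma here thus do not measure how closely the libraries of a group agreed for that gene. *Prtn3* was 2.61-fold lower, from 21554 and 24162 to 5967 and 11571 (−1.46 ± 0.29, adjusted p = 5.5e-05), and *Prss57* 2.33-fold lower, from 1232 and 1336 to 388 and 711 (−1.29 ± 0.24, adjusted p = 1.3e-05). *Ctsg* was 1.68-fold lower, from 16519.7 and 17924 to 7885 and 12655 (−0.78 ± 0.29, adjusted p = 0.043). *Lyz2* was 3.47-fold higher (1.79 ± 0.27, adjusted p = 3.3e-09), with its values given above, and was the only member called higher.

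*Mpo* and *Elane* were also lower in both Pu.1-KO-labelled GMP libraries than in both WT libraries, as were 6 members and 33.5% of all genes (31.5% were higher in both), yet they did not pass. The SEs of *Mpo* and *Elane*, the widest of the members, came from the trend with mean level. *Mpo* was at 161796 and 171860 in WT and at 59883 and 105067 in Pu.1-KO-labelled GMPs (−1.07 ± 0.50, adjusted p = 0.11), and it was called by edgeR, by DESeq2 and after rescaling with trimmed means. *Elane* was at 56439 and 65854 against 28106 and 52959 (−0.66 ± 0.39, adjusted p = 0.22). *Nkg7* was at 2009 and 2292 against 1025 and 2111, with overlap (−0.54 ± 0.24, adjusted p = 0.087). For all 8 members the first Pu.1-KO-labelled library was lower than the second. Of the 8 members 4 were called lower and 1 higher, where 17.6% of all genes were called, 8.49% lower and 9.15% higher, and the members' median was −0.93 against −0.00 over all genes. Without either WT library 1 member was called, and without the second Pu.1-KO-labelled library 8 were. Late granule genes moved opposite to the proteases, since 12 of 14 tested were called higher (*Ly6g* 4.05, *Ngp* 3.10, *Mmp9* 3.10), and their part in the members' values was not tested.

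In KLS cells of the Pu.1 line no member was called by limma, edgeR or DESeq2, where 0.81% of 23459 genes were called by limma. Among the called genes 110 were higher and 80 lower, a split that became 587 and 201 after rescaling with trimmed means. The median gene lay 0.12 above 0 on the log2 scale, against which the following values should be read. *Prtn3* was at 3307 and 2547 in WT and at 1573 and 634 in Pu.1-KO-labelled cells (−1.54 ± 0.61, adjusted p = 0.11), and *Ms4a3* at 596 and 581 against 365 and 137 (−1.39 ± 0.58, adjusted p = 0.13), both without overlap. *Nkg7* was at 451 and 417 against 1102 and 579, also without overlap (0.88 ± 0.57, adjusted p = 0.29). Of all genes 31.9% had both Pu.1-KO-labelled libraries lower and 33.7% both higher. *Elane* was at 7994 and 6512 against 18079.7 and 6413, and *Mpo* at 22948 and 17150.5 against 28206 and 11262, with WT inside the range of the Pu.1-KO-labelled libraries. *Lyz2* was at 5838 and 3885 against 5172 and 915 (−1.13 ± 0.68, adjusted p = 0.26), in the direction opposite to GMPs. The difference of its effect between the cell types, again a test added after the data were seen, was −2.92 ± 0.80 (adjusted p = 0.31), and no member was called in it, where 0.0091% of 21971 genes were. Without the first Pu.1-KO-labelled KLS library 3 members were called within KLS cells and 1 between the cell types, and without the second 2 were called between the cell types.

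Genes that process or carry granule contents were read from a fixed list of 18. In untimed KLS cells 9 of 17 tested were higher in Daxx-KO and 1 lower, where 10.6% of all genes were higher and 12.5% lower. The median log2 difference was 0.59 (0.03 over all genes). *Man2b1*, a lysosomal mannosidase, rose by 2.00 ± 0.10 (adjusted p = 7.4e-06) and *Cd63*, a granule membrane tetraspanin, by 1.30 ± 0.17 (adjusted p = 0.00095). *Cst7* (cystatin F, an inhibitor of cathepsin C, the enzyme that activates the granule proteases) went the other way, by −5.55 ± 0.70 (adjusted p = 0.00077). In untimed GMPs 8 of 17 were higher and 2 lower, where 16.6% and 16.5% of all genes were. Those lower were *Cst7* (−5.05 ± 0.78) and *Ctsc*, the gene of cathepsin C (−1.03 ± 0.17), which fell while 3 of the 4 proteases rose. In DKO-labelled KLS cells 6 were higher than in WT and 1 lower, where 17.6% of all genes were called and 9.24% were higher. *Cst7* (3.11 ± 0.50) and *Cd63* (2.40 ± 0.25) were among those higher, *Cst7* again with the sign of *Nkg7*. In Pu.1-KO-labelled GMPs 5 of 18 were lower and none higher, where 8.49% and 9.15% of all genes were, with a median of −0.27. Among those lower were the lysosomal hydrolases *Gaa* (−0.80 ± 0.24) and *Gusb* (−0.79 ± 0.24).

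Of 15 or 16 tested regulators of primary granule genes, 7 were higher and none lower in untimed Daxx-KO KLS cells, where 10.6% and 12.5% of all genes were. They were led by *Cebpe* (3.66 ± 1.00, adjusted p = 0.031), *Cebpa* (2.54 ± 0.21, adjusted p = 6.7e-05) and *Cebpd* (2.44 ± 0.34, adjusted p = 0.0013). In untimed GMPs 6 were higher and 6 lower, where 16.6% and 16.5% of all genes were. They were led by *Egr1* (3.29 ± 0.25), *Klf4* (−2.82 ± 0.28) and *Irf8* (−2.71 ± 0.21). In DKO-labelled KLS cells 5 were higher than in WT and 3 lower, led by *Cebpe* (4.60 ± 0.99), *Gfi1* (2.83 ± 0.34) and *Cebpa* (2.48 ± 0.36), and 5 were higher and 2 lower than in Daxx-KO. Of all genes 17.6% were called against WT, with 9.24% higher, and 15.4% against Daxx-KO, with 8.17% higher. In Pu.1-KO-labelled GMPs *Klf4* (0.91 ± 0.25) and *Cebpe* (0.65 ± 0.24) were higher and *Myb* lower (−0.98 ± 0.26, adjusted p = 0.0041), where 9.15% and 8.49% of all genes were. In KLS cells of that line only *Gata2* was called (−2.21 ± 0.59), where 0.81% of all genes were. No regulator was called between Daxx-KO and WT at 3 w.p.i. in either cell type, where 0.257% of all genes were in KLS cells and 0.0948% in GMPs.

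Protease inhibitors were called in small numbers in each direction. Not all of those listed act on the serine proteases among the members, since *Cst3* and *Cstb*, for example, inhibit cysteine proteases. In untimed KLS cells 3 of 8 were higher and 2 lower (*Serpina3f* 2.53 ± 0.36), where 10.6% of all genes were higher and 12.5% lower. Of 7 tested in untimed GMPs, 2 were called each way, where 16.6% and 16.5% of all genes were (*Slpi*, which inhibits elastase and cathepsin G, −1.48 ± 0.22). In DKO-labelled KLS cells 3 of 8 were higher than in WT, among them *Slpi* (3.79 ± 0.88) and *Serpinb1a*, an inhibitor of neutrophil serine proteases (1.42 ± 0.31), where 9.24% of all genes were higher. *Serpina3g*, picked out after its values were seen, was the 1 inhibitor lower there (−1.23 ± 0.29, adjusted p = 0.019). In Pu.1-KO-labelled GMPs *Slpi* (1.49 ± 0.25) and *Serpinb6a* (0.79 ± 0.28) were higher and *Serpina3g* (−1.28 ± 0.37, adjusted p = 0.0083) was lower, of 8 tested, where 9.15% of all genes were higher and 8.49% lower. Of 15 receptors and surface genes of myeloid progenitors, 8 were higher and 3 lower in untimed Daxx-KO KLS cells, 6 higher and 8 lower in untimed GMPs, 1 higher and 4 lower in DKO-labelled KLS cells against WT, and 7 lower and none higher in Pu.1-KO-labelled GMPs. The same shares of all genes apply, and the medians over the 15 were 0.74, −0.74, −0.74 and −0.59 in that order, with 0.03, −0.01, 0.00 and 0.00 over all genes.

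Around the members lie 54 other genes within 50 kb. In untimed KLS cells 7 of 22 tested were called higher in Daxx-KO and none lower, where 10.6% of all genes were higher and 12.5% lower, with a median of 0.81. They included *Oosp1* near *Ms4a3* (5.06), *Palm* near *Prss57* (2.42), *Tspoap1* near *Mpo* (2.38) and *Plppr3*, which overlaps *Prtn3* on the other strand (1.36). In Pu.1-KO-labelled GMPs 9 of 28 were lower and 2 higher, where 8.49% and 9.15% of all genes were, with a median of −0.38, and *Palm* (−0.81), *Plppr3* (−0.93) and *Tspoap1* (−1.03) were among those lower. In KLS cells at 3 w.p.i. none of 25 was called between Daxx-KO and WT, where 0.257% of all genes were. Between DKO-labelled cells and WT 3 were called higher and none lower, where 17.6% of all genes were called and 9.24% were higher. Whether reads of a member were counted for a neighbour was not tested.

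Over all tables, each centred on its own mean, the correlation of a member with the mean of the other 7 was a description of how closely the group moved together. Among the 18 KLS libraries Pearson's r was 0.975 for *Ctsg*, 0.970 for *Mpo*, 0.969 for *Elane*, 0.937 for *Prtn3*, 0.925 for *Ms4a3*, 0.910 for *Prss57*, 0.840 for *Lyz2* and 0.447 for *Nkg7*. Among the 18 GMP libraries it was highest for *Elane* (0.935), *Prss57* (0.896) and *Prtn3* (0.868), 0.648 to 0.665 for *Ctsg*, *Ms4a3* and *Mpo*, 0.516 for *Nkg7* and −0.196 for *Lyz2*. The libraries share genotypes and tables, so these values have no p. The 8 other genes whose level was most like the members' mean over all 36 libraries, among 8866 genes with enough reads in every table, were *Msrb1* (r = 0.956), *Alas1* (0.944), *Mtus1* (0.925), *Stom* (0.914), *Rab44* (0.910), *Hp* (0.909), *Ap3s1* (0.908) and *Plod3* (0.895).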

How the data were processed

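RNA of sorted KLS cells and GMPs was made into Illumina libraries, by the labels with the Ovation SoLo kit, whereas the study's methods name a SMARTer stranded kit for the steady-state sets, so that the kit of each library is unsure. The submitters' processing notes name CASAVA 1.8.4, cutadapt 1.13, STAR 2.5.3, DESeq2 1.16.1 and the mm10 build, and the counting tool and its use of strand are not given in the sources used here. The deposited values are normalized counts, that is a signal in which the authors divided each library's whole read counts by a size factor within a table. Whole reads were recovered for 100% of the values (tolerance 0.01), which gave depth, shares of reads and the reads behind low values.

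Columns were tied to samples by their headings and, at 24 w.p.i., by the control ending of the companion repeat-element table. In all 75 columns of per-sample values (23 gene-level and 52 of repeat elements) were not used, including those of LTHSC and MPP populations and the Daxx-KO and DKO libraries of 24 w.p.i., which are not analysed here.

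In R 4.3.3, limma 3.58.1 with a mean-variance trend was fitted in each table to log2 of the normalized count plus a pseudocount of 1 for genes with a mean of 10 or more over its mapped libraries, with all its libraries in 1 fit and Benjamini-Hochberg adjustment over all genes tested. A gene was called at an adjusted p under 0.05. A fold is the ratio of group means of normalized counts, whereas a log2 difference is taken between means of log2 values, so they need not match. The pseudocount shrinks the log2 difference of low genes, yet it can still exceed the fold where libraries of a group lie far apart. Differences between effects were tested as contrasts over joined tables. The tests were tried on simulated data first. Alternatives were pseudocounts of 5 and 0.5, no filter and a filter at 50, rescaling by trimmed means, edgeR 4.0.16 quasi-likelihood and DESeq2 1.42.0 on the recovered reads, fits of 2 groups only, replicate blocks and leaving out each library. All 8 members passed the filter in each of the 6 tables tested. Replicates of a group differed by more than sampling noise everywhere.

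KLS and GMP libraries of the timed sets with the same animal number come from 1 animal, and their deviations from the group means correlated at −0.025 to 0.244 at 3 w.p.i. and at −0.189 and −0.469 in the Pu.1 line. The text names all members in every table, of the other lists described their counts and at most the 3 called genes with the largest change per comparison, the neighbours within 50 kb and the 8 most similar genes, and it says where another gene was picked after its values were seen. The members and the lists were chosen with earlier results of these data known.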

Additional observations from a re-analysis of the deposited data

Results flagged for a closer look

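The following effects differed between groups by a test of the difference itself (limma, Benjamini-Hochberg adjusted over all genes tested). In the untimed set the Daxx-KO effect on the log2 scale was higher in KLS cells than in GMPs by 4.51 for *Mpo*, 4.38 for *Elane*, 2.32 for *Prtn3*, 3.76 for *Ctsg*, 2.91 for *Prss57* and 4.74 for *Ms4a3*. In KLS cells it was higher in the untimed set than at 3 w.p.i. by 5.31 for *Mpo*, 6.30 for *Elane*, 3.78 for *Prtn3*, 4.38 for *Ctsg*, 4.13 for *Prss57*, 6.17 for *Ms4a3* and 2.98 for *Lyz2*. The effect of the DKO label against WT at 3 w.p.i. was higher in KLS cells than in GMPs by 2.97 for *Nkg7*.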

How the results depend on the processing

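The tables rest on 2 or 3 libraries a group, and the planned comparisons of 24 w.p.i., MPP and LTHSC populations were not run because their columns were not tied to groups. For the members called in each comparison, the planned settings kept the count within 1.5 times of the value in the report except as follows. The replicate block called 8 members between DKO-labelled and WT KLS cells (4 without it), no filter on low values called 4 in the difference between untimed and 3 w.p.i. KLS cells (7 with it), and in the difference of the DKO effect between cell types DESeq2 called 2 and the block for the shared animal 3 (1 in the report). Replicate numbers did not pair the libraries within a table, with correlations of deviations from −0.214 to 0.0689 for equal numbers. In untimed GMPs, where it was −0.111, the block called 6 members and the crossed pairing 7, and in untimed KLS cells the block called 8. The lone library of an arm was taken to vary like the other groups. Leaving out 1 library at a time gave 2 to 8 calls in untimed KLS cells, 5 to 6 in untimed GMPs, 1 to 8 between DKO-labelled and WT KLS cells, 2 to 6 between DKO-labelled and Daxx-KO KLS cells, 0 to 3 in KLS cells and 1 to 8 in GMPs of the Pu.1 line, 5 to 6 in the difference between untimed cell types, 3 to 8 in that between untimed and 3 w.p.i. KLS cells, 0 to 7 in that of the DKO effect and 0 to 2 in that of the Pu.1-KO effect.

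Signs turned only for log2 values that had not passed the test. In KLS cells at 3 w.p.i. the block turned the Daxx-KO difference to 0.59 for *Ctsg*, 0.37 for *Prss57* and 0.48 for *Nkg7*, and in the Pu.1 line edgeR and DESeq2 turned *Mpo* in KLS cells to 0.12 and 0.0075. For the difference between cell types at 3 w.p.i. edgeR and DESeq2 gave −0.031 and −0.046 for *Prss57* and −0.082 and −0.12 for *Lyz2*, and for that of the Pu.1 line DESeq2 gave 0.049 for *Prtn3*. Without 1 library the Daxx-KO difference in KLS cells at 3 w.p.i. ran from −1.21 to 0.44 for *Ctsg*, −0.52 to 0.28 for *Prss57*, −1.89 to 0.044 for *Ms4a3* and −0.33 to 0.32 for *Nkg7*. In GMPs at 3 w.p.i. it ran from −0.39 to 0.18 for *Mpo*, −0.60 to 0.011 for *Prtn3* and −0.34 to 0.24 for *Ctsg*. The DKO difference from WT there ran from −0.87 to 0.22 for *Mpo*, −0.43 to 0.25 for *Elane*, −1.53 to 0.18 for *Prtn3*, −1.15 to 0.014 for *Lyz2* and −0.34 to 0.20 for *Nkg7*, and that from Daxx-KO from −0.70 to 0.39 for *Mpo*, −0.020 to 0.66 for *Elane*, −1.23 to 0.48 for *Prtn3* and −0.31 to 0.086 for *Prss57*. The range in Pu.1-KO-labelled KLS cells was −0.82 to 0.51 for *Mpo*, −0.17 to 1.33 for *Elane*, −1.03 to 1.19 for *Ctsg*, −0.38 to 0.014 for *Prss57* and −2.38 to 0.12 for *Lyz2*. For the differences between cell types it was −0.83 to 0.47 for *Lyz2* in the untimed set, then at 3 w.p.i. −1.87 to 0.090 for *Elane*, −1.08 to 0.57 for *Ctsg*, −0.25 to 0.55 for *Prss57*, −1.47 to 0.46 for *Ms4a3* and −0.10 to 1.38 for *Lyz2*, and in the Pu.1 line −0.73 to 0.57 for *Prtn3*, −0.25 to 1.98 for *Ctsg* and −0.17 to 1.23 for *Ms4a3*. The cause of these shifts was not tested.

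Over all genes the number called moved by over 1.5 times from 3118 to 1751 without a filter in untimed KLS cells, from 39 to 342 with DESeq2 and 81 with the block between Daxx-KO and WT KLS cells at 3 w.p.i., from 2340 to 1283 with the block between DKO-labelled and Daxx-KO KLS cells, from 13 to 80, from 40 to 262 and from 8 to 278 with DESeq2 in the 3 comparisons of GMPs at 3 w.p.i., from 40 to 5 and from 8 to 0 there with 2 groups only, and from 190 to 1919 with edgeR, 1357 with DESeq2, 788 with trimmed means and 533 with the filter at 50 in KLS cells of the Pu.1 line. Between DKO-labelled and WT GMPs the filter at 50 gave 22, between DKO-labelled and Daxx-KO GMPs trimmed means gave 18, edgeR 20 and the pseudocount of 5 gave 17, and in the difference of the DKO effect between cell types 125 calls became 611 with DESeq2, 380 with the animal block and 62 without a filter. Genes with an unadjusted p under 0.05 numbered 1777, 433, 961, 1104 and 6071 in the 5 comparisons in which limma called no member, in the order in which they were named here.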
